A study of Homo sapiens with 8 samples.

Results

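Solute carriers are membrane proteins that move amino acids, sugars, ions, metals, vitamins and lipids across the plasma membrane and the membranes of the Golgi, lysosome and vesicles. The group described here holds the protein-coding genes whose symbols follow the SLC family scheme, without the mitochondrial SLC25A carriers, that collected at least 100 counts summed over both inputs of the TRiC line. This rule took 159 genes of 289 family symbols and of 60664 gene identifiers in all. The members fell into 44 subfamilies. SLC52A1 (93 counts), SLC2A14 (98 counts) and SLC6A12 (98 counts) lay just under the minimum, and SLC27A2 (103 counts), SLC16A9 (105 counts) and SLC24A4 (112 counts) just above it. The working name of the group speaks of the plasma and ER membrane, but its members also include carriers of the Golgi (SLC35A3), of lysosomes (SLC17A5, SLC38A9) and of synaptic vesicles (SLC18A2, SLC32A1). SLC3A2 is the single-pass partner of several amino acid carriers, and the SLC27A proteins are acyl-CoA synthetases of fatty acid uptake.

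Ribosome-protected fragments (RPFs) of the human osteosarcoma line U-2 OS were counted once for all ribosomes (input) and once for those recovered through a crosslinked chaperone (pulldown). In the TRiC line the chaperonin subunit CCT4 carried a HaloTag knocked into a loop of the protein, and in the PFD line the prefoldin subunit PFD4 carried it at its C terminus. Each line came from a single edited clone, so that clone, tag and library preparation cannot be told apart between them. The 4 groups, an input and a pulldown for each line, had 2 biological replicates each, and every culture received cycloheximide at 100 µg/ml for 1 min and the crosslinker DSP at 2 mM for 30 min.

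TRiC is a ring-shaped chaperonin of the cytosol that encloses folding proteins, and prefoldin is a jellyfish-shaped chaperone that hands unfolded chains to it. Most solute carriers are not textbook clients of either. Their hydrophobic segments are recognised by the signal recognition particle while the chain is still short, and the ribosome is then docked on the Sec61 channel, where the segments enter the ER membrane as they emerge. Large loops and tails that face the cytosol remain accessible from that side.

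The libraries held 9523128 to 32637658 counts, and the solute carriers took between 0.826% and 1.06% of them. In the TRiC inputs the share was 0.826% and 0.848%, and in the TRiC pulldowns it was 0.882% and 0.870%. In the PFD inputs it was 1.04% and 1.02%, and in the PFD pulldowns it was 0.980% and 1.06%. The PFD libraries had between 5 and 17 members at 0, the most in pulldown replicate 1, the shallowest library. No member was at 0 in a TRiC library, but the lines cannot be compared in this, since the count minimum was set on the TRiC inputs alone. The common dispersion, edgeR's measure of the spread between replicates, was 0.0153 for the TRiC libraries and 0.331 for the PFD libraries. Mesenchymal genes such as VIM were high in all 8 libraries (1448 to 2067 CPM), and COL1A2 was near 0 (0.0520 to 2.02 CPM). The blood markers CD3E and HBB were at 0 in every library. For these marker genes CPM is the count scaled to the library total, without TMM. The CPM of solute carriers given below is the count scaled to library size by the TMM method.

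All members encode hydrophobic stretches, counted here as windows of 19 residues with a mean Kyte-Doolittle value of at least 1.6. The median member had 9 such segments, 157 members had at least 2, and 2 members had 1. The coding sequence of the first segment is given for 5 members, as examples of enriched and of depleted genes described in the following paragraphs. SLC27A3, SLC12A7 and SLC1A5 were called in each of 4 fits that left out 1 library, SLC7A5 in 2 and SLC50A1 in 1 of them. Codons of the residues A, C, F, I, L, M and V are in capitals, and all sequences lie within 1 exon of the hg38 genome in the GENCODE annotation. SLC27A3 (ENSG00000143554, chr1:153775498-153775554, plus strand) opens with its segment at residues 1 to 19, and 16 of these codons are hydrophobic. In SLC12A7 (ENSG00000113504, chr5:1089060-1089116, minus strand, residues 119 to 137) the first segment follows a long cytosolic N terminus. SLC1A5 (ENSG00000105281, chr19:46787777-46787833, minus strand, residues 45 to 63), SLC7A5 (ENSG00000103257, chr16:87869219-87869275, minus strand, residues 50 to 68) and SLC50A1 (ENSG00000169241, chr1:155135924-155135980, plus strand, residues 5 to 23) were lower in the TRiC pulldown.
SLC27A3: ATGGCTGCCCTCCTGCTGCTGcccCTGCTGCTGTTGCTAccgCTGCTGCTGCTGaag
SLC12A7: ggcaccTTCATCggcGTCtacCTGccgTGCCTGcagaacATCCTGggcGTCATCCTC
SLC1A5: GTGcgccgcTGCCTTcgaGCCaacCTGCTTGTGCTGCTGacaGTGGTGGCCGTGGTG
SLC7A5: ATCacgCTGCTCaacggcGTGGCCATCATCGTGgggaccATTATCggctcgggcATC
SLC50A1: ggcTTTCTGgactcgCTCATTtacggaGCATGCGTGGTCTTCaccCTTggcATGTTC
Hydrophobic codons made up 14 of 19 in SLC1A5, 12 in SLC50A1, and 11 in both SLC12A7 and SLC7A5, so that the enriched and the depleted genes of this set overlapped in this respect.

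In the TRiC line the pulldown was compared with the input to ask which carriers were translated by ribosomes that TRiC was bound to. Of the 159 members, all of which were tested, 19 were enriched and 7 were depleted in the pulldown at an adjusted p under 0.05. Over all 17934 genes tested, 8.64% were higher and 10.6% were lower. The median log2 fold change of the members was 0.015, against -0.003 over all genes tested, and 86 members lay above 0 and 73 below. The third quartile was 0.185 for the members, 0.239 over the protein-coding genes tested and 0.345 over all genes tested. The minimum of 100 counts held for the members only, and its part in this difference was not tested. Only SLC27A3 and SLC35A3 passed a test against a 1.5-fold change, and 3 members had a log2 fold change beyond 1.

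**Figure D1:**
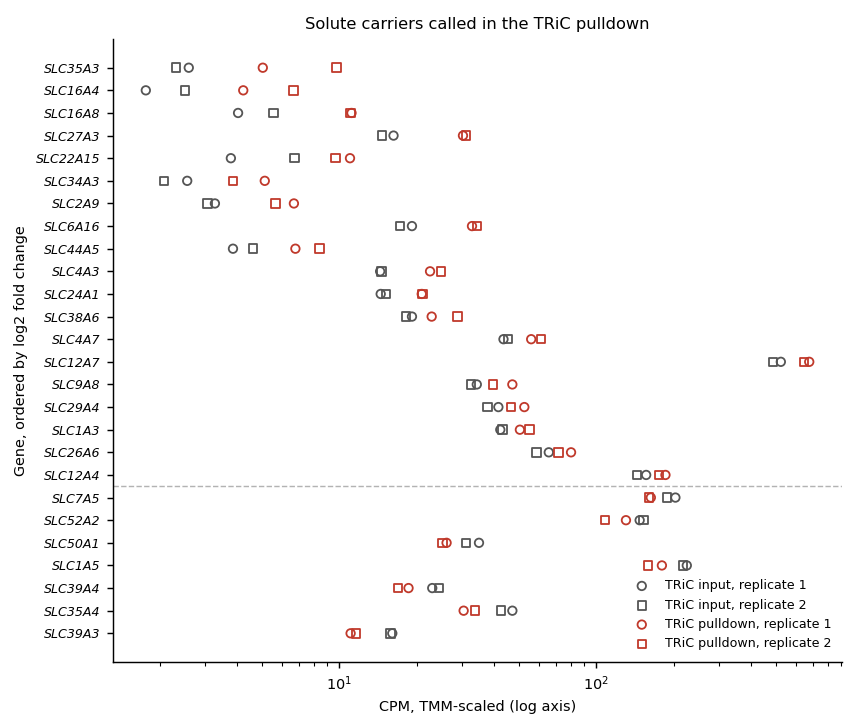
Level of the 26 solute carriers called in the TRiC pulldown in each of the 4 TRiC libraries, as TMM-scaled CPM on a log axis. Grey symbols are inputs and red symbols pulldowns, circles are replicate 1 and squares replicate 2, and the dashed line parts the 19 enriched genes from the 7 depleted ones. In 26 of 26 genes both pulldowns lie on the same side of both inputs. The genes were picked by a test on these same 4 libraries, so that this separation is no further support for the calls.

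SLC27A3, an acyl-CoA synthetase of the fatty acid transport protein family, gave the clearest enrichment. Its level was 16.3 and 14.7 CPM in the TRiC inputs and 30.3 and 31.2 CPM in the TRiC pulldowns. Both pulldowns were close to each other and well apart from the inputs, for a log2 fold change of 0.99 ± 0.13 (SE, adjusted p = 7.0e-05). It is also among the members with the fewest hydrophobic segments, with 2 in 683 residues. The other 5 fatty acid transport proteins tested had log2 fold changes between -0.22 and 0.39, none of them called.

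SLC35A3, the Golgi carrier of UDP-N-acetylglucosamine, had the highest log2 fold change of all members. It measured 2.60 and 2.31 CPM in the inputs and 5.04 and 9.77 CPM in the pulldowns, which gave a log2 fold change of 1.59 ± 0.31 (SE, adjusted p = 0.00201). The pulldowns differed from each other more than the inputs did, on 72 and 70 input counts. In the same subfamily SLC35A4 went the other way, with 47.2 and 42.6 CPM in the inputs against 30.5 and 33.7 CPM in the pulldowns (log2 fold change -0.49 ± 0.11, SE, adjusted p = 0.00522). The SLC35A4 mRNA is known to carry an upstream reading frame for a separate microprotein, and counts per gene do not tell the RPFs of the frames apart. The class of nucleotide sugar, nucleoside and related carriers had 2 members higher and 1 lower among 11, with a median of -0.06. Its second enriched member was SLC29A4, a carrier of organic cations and adenosine (log2 fold change 0.32), named after its value was seen.

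Monocarboxylate carriers gave enriched genes of low level. SLC16A8, a lactate carrier known from retinal pigment epithelium, had 4.04 and 5.55 CPM in the inputs and 11.2 and 11.1 CPM in the pulldowns (log2 fold change 1.21 ± 0.22, SE, adjusted p = 0.000961). SLC16A4, a family member of unsettled substrate, had 1.77 and 2.51 CPM in the inputs and 4.23 and 6.63 CPM in the pulldowns (log2 fold change 1.33 ± 0.33, SE, adjusted p = 0.00826). The abundant lactate and pyruvate carrier SLC16A1 did not pass the test at 240 and 252 CPM in the inputs and 233 and 247 CPM in the pulldowns. Of the 9 carboxylate carriers in all, these 2 were higher and none was lower, with a class median of -0.04.

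The carriers of inorganic ions, which exchange sodium, potassium, chloride, bicarbonate, phosphate or sulfate, held the most enriched members. Among 31 measured genes 8 were higher and none was lower, 24 lay above 0, and the class median was 0.13. Over all genes tested 8.64% were higher and 10.6% lower. SLC12A7, a potassium and chloride cotransporter, was the most abundant of them, with 523 and 487 CPM in the inputs and 675 and 644 CPM in the pulldowns. The change was small (log2 fold change 0.39 ± 0.07, SE, adjusted p = 0.000856), but both pulldowns exceeded both inputs by more than either pair differed. SLC34A3, a sodium and phosphate cotransporter of the kidney, measured 2.56 and 2.08 CPM in the inputs and 5.13 and 3.85 CPM in the pulldowns (log2 fold change 0.96 ± 0.32, SE, adjusted p = 0.0430).

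The other 6 enriched ion carriers, named after their values were seen, were the anion exchanger SLC4A3 (log2 fold change 0.71), the sodium, calcium and potassium exchanger SLC24A1 (0.50), the sodium and bicarbonate cotransporter SLC4A7 (0.39), the sodium and proton exchanger SLC9A8 (0.38), the anion exchanger SLC26A6 (0.29) and the potassium and chloride cotransporter SLC12A4 (0.27). SLC4A3 measured 14.4 and 14.6 CPM in the inputs and 22.6 and 24.9 CPM in the pulldowns. The count of 8 depended on single libraries, in settings applied to this class after the data were seen. It fell without either TRiC input and without TRiC pulldown replicate 1, and it stayed at 8 without TRiC pulldown replicate 2. Over all genes the enriched share also fell without either TRiC input, but not without TRiC pulldown replicate 1. Of the 8 genes only SLC12A7 and SLC4A3 were called in each of these fits.

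Amino acid carriers were split. Among 30 genes 3 were higher and 2 were lower, and the class median was 0.00. SLC6A16, an orphan of the neurotransmitter transporter family, had 19.2 and 17.3 CPM in the inputs and 32.9 and 34.3 CPM in the pulldowns (log2 fold change 0.88 ± 0.12, SE, adjusted p = 0.000138). SLC1A5, the exchanger of glutamine and other neutral amino acids, fell from 225 and 218 CPM in the inputs to 180 and 159 CPM in the pulldowns (log2 fold change -0.38 ± 0.08, SE, adjusted p = 0.00306). SLC7A5, the light chain of the large neutral amino acid exchanger LAT1, fell from 203 and 188 CPM to 163 and 160 CPM (log2 fold change -0.28 ± 0.08, SE, adjusted p = 0.0184).

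SLC3A2, the heavy chain that escorts SLC7A5 to the cell surface, measured 413 and 416 CPM in the inputs and 382 and 393 CPM in the pulldowns and did not pass the test (adjusted p = 0.3498). The glutamine carrier SLC38A2, the most translated member, was also not called at 811 and 858 CPM against 847 and 921 CPM. SLC7A11, the cystine and glutamate exchanger (adjusted p = 0.294), and SLC7A6, a further light chain (adjusted p = 0.344), were not called either. SLC1A3, the glial glutamate carrier (log2 fold change 0.30), and SLC38A6 (0.47) were the other 2 enriched members of this class, and both were named after their values were seen.

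Metal ion carriers gave no enriched member. Among 24 genes 2 were lower, the zinc importers SLC39A3 and SLC39A4, and the class median was -0.005. SLC39A3 measured 16.1 and 15.9 CPM in the inputs and 11.1 and 11.6 CPM in the pulldowns (log2 fold change -0.50 ± 0.16, SE, adjusted p = 0.0339). SLC39A4 measured 23.0 and 24.4 CPM in the inputs and 18.6 and 16.96 CPM in the pulldowns (log2 fold change -0.41 ± 0.13, SE, adjusted p = 0.0366). The more abundant zinc carriers of this class, SLC39A7 of the ER and Golgi and SLC39A14 of the cell surface, were not called, with log2 fold changes of -0.06 and -0.19.

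Among the 16 sugar carriers SLC2A9 was higher and SLC50A1 was lower. SLC2A9, which carries urate, had 3.28 and 3.07 CPM in the inputs and 6.66 and 5.64 CPM in the pulldowns (log2 fold change 0.96 ± 0.26, SE, adjusted p = 0.0161). SLC50A1, the mammalian member of the SWEET family, had 34.99 and 31.1 CPM in the inputs and 26.2 and 25.3 CPM in the pulldowns (log2 fold change -0.36 ± 0.12, SE, adjusted p = 0.0396). The glucose carrier SLC2A1 was not called at 241 and 244 CPM in the inputs and 220 and 207 CPM in the pulldowns (adjusted p = 0.0960). SLC2A3, whose reads can be lost to its near-identical copy SLC2A14 under unique alignment, was not called either.

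The 23 carriers of vitamins, choline, haem and organic ions held 2 enriched and 1 depleted member. SLC22A15, an organic zwitterion carrier, had 3.79 and 6.70 CPM in the inputs and 11.01 and 9.65 CPM in the pulldowns (log2 fold change 0.98 ± 0.24, SE, adjusted p = 0.00956). SLC52A2, a riboflavin carrier, had 148 and 153 CPM in the inputs and 131 and 108 CPM in the pulldowns (log2 fold change -0.33 ± 0.09, SE, adjusted p = 0.0162). Opposite-strand exons overlap 50% of this gene's exon bases, and the strand setting of the counting was not given in the sources used here. The second enriched gene was SLC44A5 (log2 fold change 0.83), named after its value was seen. None of the 9 peptide, vesicular and lysosomal carriers was called, and all of them had an unadjusted p above the threshold as well.

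**Figure D2:**
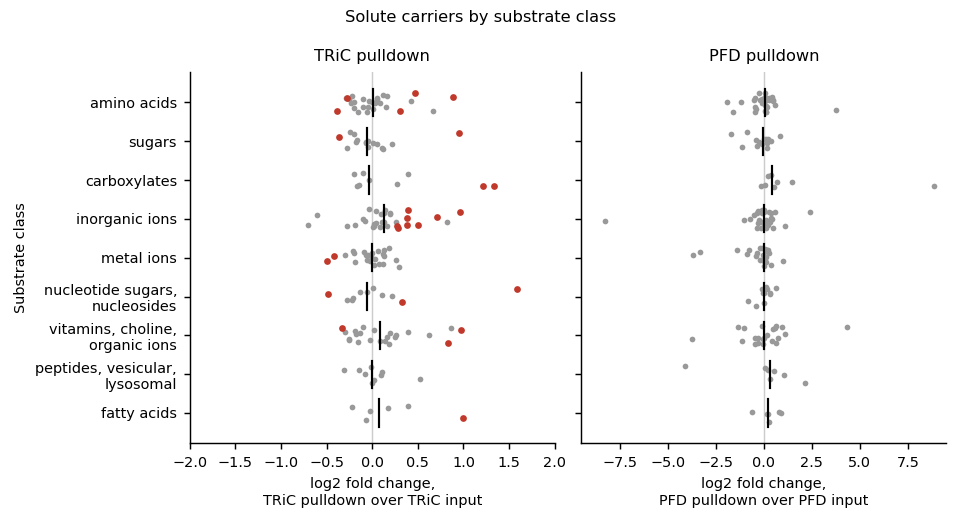
log2 fold change of each tested solute carrier by substrate class, TRiC pulldown over TRiC input on the left and PFD pulldown over PFD input on the right. Points are genes, red points passed an adjusted p under 0.05, vertical bars are class medians, and the horizontal scales differ. Red points are seen in the TRiC comparison only, and the far points of the PFD panel, such as SLC16A8 and SLC12A8, have a group at 0 or 1 counts, so that their fitted position is no measured size.

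The number of TRiC calls moved with the libraries and the scaling. Fewer members were called without either TRiC input or without TRiC pulldown replicate 2, and more were called lower without TRiC pulldown replicate 1. Over all genes the shares called moved the same way in these fits. SLC12A7, SLC16A8, SLC27A3, SLC35A3, SLC4A3, SLC6A16 and the depleted SLC1A5 were called in each of these 4 fits. SLC16A4, SLC22A15 and SLC35A4 were called in 3 of them, and SLC24A1, SLC2A9, SLC39A3, SLC44A5, SLC4A7 and SLC7A5 in 2. The remaining 10 calls, SLC12A4, SLC1A3, SLC26A6, SLC29A4, SLC34A3, SLC38A6, SLC39A4, SLC50A1, SLC52A2 and SLC9A8, were made in 1 of the 4 fits. With library totals in place of TMM the split was 20 enriched to 2 depleted, and over all genes 10.0% were then higher and 7.05% lower. In a fit of all 8 libraries, which shares the wide spread of the PFD libraries, no member was called.

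The 19 enriched and 7 depleted members had different medians in sequence features that the rule did not use, but their ranges overlapped. The coding GC content of the depleted genes (54.9% to 67.6%) lay within that of the enriched ones (36.8% to 70.9%). The coding GC content had a median of 51.7% in the enriched, 63.1% in the depleted and 55.5% in the remaining members, and the coding length had medians of 1797, 1335 and 1659 bases. Over the 159 members, which share the same 4 libraries, the log2 fold change had a Spearman rho of -0.27 with GC content, 0.22 with coding length and 0.05 with the number of hydrophobic segments. Over all 14611 protein-coding genes tested, these values were -0.20, 0.35 and 0.10. The median level in the TRiC inputs was 7.44 CPM per 1000 coding bases in the enriched and 49.1 in the depleted members. This is no independent feature, since the rule used these inputs and they are also the denominator of the fold change. Whether GC content, length or level had a part in the enrichment was not tested.

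The carriers were set beside the other protein-coding genes tested by the number of hydrophobic segments. The minimum of 100 counts in the TRiC inputs applied to the carriers only. Over all protein-coding genes tested, the log2 fold change had a Spearman rho of -0.23 with the mean level in the 4 TRiC libraries. The part of level in this comparison was not tested. Among the other protein-coding genes the median log2 fold change was -0.06 without a segment, -0.01 with 1, 0.03 with 2 to 5, 0.11 with 6 to 9 and 0.34 with 10 or more. Among the solute carriers it was 0.00, 0.02 and 0.02 in the last 3 of these classes, and -0.16 for the 2 carriers with 1 segment. With 10 or more segments, 36 of 122 other genes (29.5%) and 8 of 54 carriers (14.8%) were enriched. The coding length differed as well in that class, with a median of 3315 bases in the other genes and 2016 in the carriers, and its part was not tested. The difference between the carriers and the other genes was not tested.

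Other carriers and pumps are set beside the solute carriers for scale. Among 39 mitochondrial SLC25A carriers, which are imported after synthesis in the cytosol, 3 were higher and 9 were lower (median log2 fold change -0.13). Among 30 ABC transporters 6 were higher and 1 was lower (median 0.11), and among 22 P-type ATPases 5 were higher and none was lower (median 0.26). The enriched share was 20.0% of the ABC transporters, 22.7% of the P-type ATPases and 25.8% of the inorganic ion carriers. It was 7.69% of the SLC25A carriers, 11.9% of all members and 8.64% of all genes tested. The share of the inorganic ion carriers depended on single libraries, as given above. The 13 genes encoded in the mitochondrion were all lower (median -2.95).

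Carriers are inserted into the ER membrane by the products of a further set of genes, from the signal recognition particle to the Sec61 channel and the EMC. Of 39 tested 1 was higher, 10 were lower and the others did not pass the test, against 8.64% higher and 10.6% lower of all genes, with a median log2 fold change of -0.14. The only one higher was SEC61A2 (0.40), a paralogue of the main channel subunit, and the lower ones included SRP14 (-0.40), SEC61B (-0.48), SEC61G (-0.38) and EMC4 (-0.47). Of 17 partners and regulators of carriers tested, 2 were lower. These were BSG, the escort of SLC16A1 to the cell surface (log2 fold change -0.41, adjusted p = 0.00114), and NHERF1, a scaffold of apical carriers (-0.40, adjusted p = 0.0221).

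In the PFD line 149 members were tested and 10 were too low. None was called by edgeR, and 7 had an unadjusted p under 0.05. Over all 14111 genes tested 0.0496% were higher and 0.191% lower, so that few genes of any kind were called with this spread. The median log2 fold change of the members was 0.04, against 0.00 over all genes, and 24 members lay beyond a log2 fold change of 1 in either direction. DESeq2 called 2 members higher (SLC12A7 and SLC16A8) and 3 lower (SLC12A8, SLC30A4 and SLC45A4), against 1.79% higher and 1.99% lower of all genes.

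SLC16A8 had the highest fitted value in the PFD pulldown. It was counted 0 and 1 times in the PFD inputs and 322 and 155 times in the PFD pulldowns, a ratio of 375 with an exact 95% counting interval of 66.9 to 14823. The pulldowns measured 34.7 and 5.44 CPM, so that replicate 1 stood far above replicate 2 (edgeR adjusted p = 0.132). SLC12A7 was close in both pulldowns, with 121 and 123 CPM in the PFD inputs against 168 and 154 CPM in the PFD pulldowns (log2 fold change 0.40 ± 0.15, SE, adjusted p = 0.706). Its log2 fold change in the TRiC line was 0.39.

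At the other end, SLC12A8 had 30 and 31 counts in the PFD inputs and 0 in both pulldowns, at least 10.6-fold lower against a floor of 3 counts per library (adjusted p = 0.703). SLC45A4, of the sugar carrier class, had 14.3 and 19.9 CPM in the inputs and 4.10 and 6.32 CPM in the pulldowns (log2 fold change -1.70 ± 0.61, SE, adjusted p = 0.706). The amino acid carriers SLC6A16 (log2 fold change -1.92) and SLC6A17 (-1.599), the choline carrier SLC44A2 (-1.13), SLC22A15 (-1.02) and SLC10A7 (-1.32) gave further low values, none of them called. SLC44A2 shows how much these rest on a single library, with 11.7 and 12.8 CPM in the inputs against 0.755 and 10.3 CPM in the pulldowns.

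Among the high values of the PFD pulldown were SLC22A23, an orphan of the organic ion carriers, with 5.81 and 3.08 CPM in the inputs and 7.44 and 9.54 CPM in the pulldowns, and SLC27A2, a fatty acid transport protein, with 5.34 and 4.34 CPM against 13.9 and 4.35 CPM. SLC27A3 measured 6.95 and 8.68 CPM in the PFD inputs and 11.3 and 16.0 CPM in the PFD pulldowns (log2 fold change 0.81 ± 0.59, SE, adjusted p = 0.886). SLC50A1, depleted in the TRiC pulldown, measured 18.5 and 15.0 CPM in the PFD inputs and 41.6 and 19.5 CPM in the PFD pulldowns (log2 fold change 0.86 ± 0.46, SE, adjusted p = 0.793). Of the 16 members enriched with TRiC that could be tested here, 8 lay above 0.

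Leaving out a PFD pulldown changed the picture. Without PFD pulldown replicate 2, the deeper one, 10 members were called higher and 14 lower, while over all genes 7% were higher and 8.76% lower. Few members were called without PFD pulldown replicate 1 or without either PFD input. Few of all genes were called in these fits as well.

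**Figure D3:**
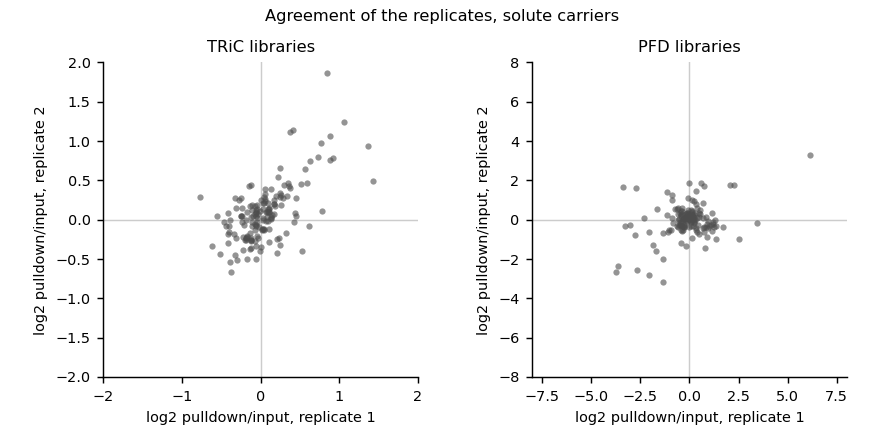
log2 ratio of pulldown to input in replicate 2 against replicate 1 for the solute carriers tested, in the TRiC line on the left and the PFD line on the right, with wider axes on the right. Each point is a gene, and the numbers pair an input with a pulldown by label only. In the TRiC line 111 of 159 genes have the same sign in both replicates, and in the PFD line 77 of 149.

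Replicates were closer in the TRiC line than in the PFD line. Over the members, the log2 ratios of both replicate numbers had a Pearson r of 0.64 and a Spearman rho of 0.54 in the TRiC line (159 genes), and 0.36 and 0.10 in the PFD line (149 genes). These are correlations across genes of the same libraries and carry no p. The median absolute difference between the replicates was 0.15 on the log2 scale in the TRiC line and 0.55 in the PFD line.

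Whether a carrier was more enriched with TRiC than with PFD was tested as an interaction over all 8 libraries. None of the 159 members passed, 20 had an unadjusted p under 0.05, and the smallest adjusted p was 0.120, for SLC12A8. Over all 18855 genes tested 0.0212% were higher and 0.0159% lower. For SLC6A16 the difference of the log2 fold changes, TRiC minus PFD, was 2.90 ± 0.54 (SE, adjusted p = 0.139), and for SLC1A5 it was -0.42 ± 0.12 (SE, adjusted p = 0.210). DESeq2 called 6 members higher and 3 lower in this comparison, SLC6A16 and SLC1A5 among them. Over all genes it called 464 higher and 521 lower, which is 2.46% and 2.76% of the 18855 fitted. Of those fitted, 16661 had an adjusted p. Members were called higher and lower by edgeR with either PFD pulldown left out, and none with any other library left out. Over all genes the shares called rose in the same fits, most without PFD pulldown replicate 2.

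The level of each carrier among total ribosomes was compared per coding length, as CPM per 1000 coding bases in the inputs. SLC38A2 had the highest mean in both lines, with 526 and 558 in the TRiC inputs and 472 and 411 in the PFD inputs. In the TRiC line it was followed by SLC3A2 (257 ± 1.69, SD of 2 inputs), SLC39A7 (178 ± 2.62), SLC2A1 (162 ± 1.51), SLC16A1 (162 ± 5.42), SLC12A7 (153 ± 7.68), SLC1A5 (135 ± 3.04), SLC20A1 (134 ± 5.16), SLC7A5 (127 ± 6.83) and SLC39A14 (125 ± 2.23). Neighbours in this order from SLC2A1 to SLC12A7 and from SLC1A5 to SLC39A14 overlapped in their inputs. The median member was at 16.6.

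**Figure D4:**
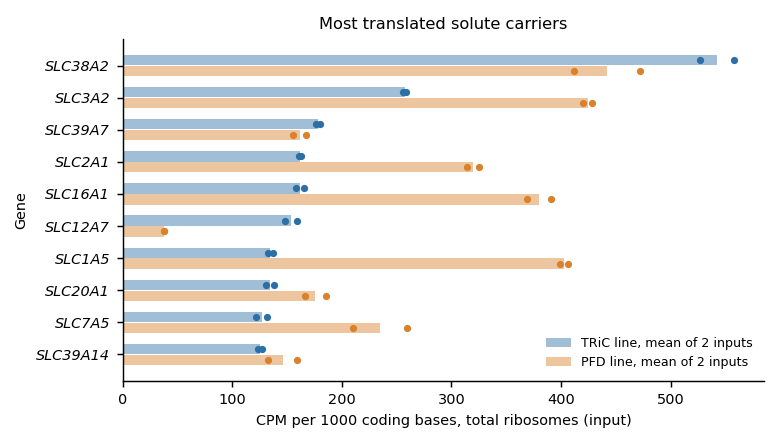
Level of the 10 most translated solute carriers of the TRiC line among total ribosomes, in CPM per 1000 coding bases. Bars are means of 2 inputs, points are the inputs, blue is the TRiC line and orange the PFD line. SLC1A5, SLC16A1, SLC2A1, SLC3A2 and SLC7A5 are higher in the PFD line, and SLC12A7 is higher in the TRiC line.

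The PFD line had a different order below SLC38A2, whose lower input lay under the mean of SLC3A2. SLC1A5 stood at 403 ± 5.00 (SD of 2 inputs), next to SLC3A2 (424 ± 5.72) and SLC16A1 (380 ± 15.7), whereas SLC12A7 stood at 37.9 ± 0.24. In the comparison of the inputs, TRiC line over PFD line, 44 of 159 members were higher and 41 were lower, against 22.6% higher and 17.7% lower of all 16341 genes tested. The members' median log2 difference was 0.17, against 0.11 over all genes tested. The minimum of 100 counts applied to the TRiC inputs alone, so that carriers scarce in the TRiC line were left out, which can raise the members' share of higher genes and their median.

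Amino acid carriers gave 11 lower and 7 higher genes of 30 in the TRiC line. SLC1A5 measured 225 and 218 CPM in the TRiC inputs and 647 and 649 CPM in the PFD inputs (log2 difference -1.58 ± 0.06, SE, adjusted p = 0.000104). SLC7A5 measured 203 and 188 CPM against 387 and 321 CPM (log2 difference -0.89 ± 0.11, SE, adjusted p = 0.00296). The inputs of the lines did not overlap in either gene.

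SLC3A2 followed in the same direction (log2 difference -0.72 ± 0.05, SE, adjusted p = 0.000496), as did SLC43A3 (-1.59 ± 0.09) and SLC7A6 (-1.89 ± 0.12), a gene with 55.6% opposite-strand overlap. SLC38A2 was higher in the TRiC line by 0.29 ± 0.08 (SE, adjusted p = 0.0337). SLC1A4, SLC6A9 and SLC7A11, further carriers of neutral amino acids, glycine and cystine, were not called, with log2 differences of -0.04, 0.16 and -0.01. SLC7A8 and SLC7A10, light chains that pair with SLC3A2, were scarce in the PFD inputs, with 2 and 4 counts and with 0 and 3 counts.

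Of the 16 sugar carriers 6 were higher and 3 lower in the TRiC inputs, and of the 9 carboxylate carriers 2 were higher and 4 lower. The glucose carrier SLC2A1 measured 241 and 244 CPM in the TRiC inputs and 471 and 465 CPM in the PFD inputs (log2 difference -0.98 ± 0.06, SE, adjusted p = 0.000278). SLC16A1 measured 240 and 252 CPM against 575 and 554 CPM (log2 difference -1.23 ± 0.06, SE, adjusted p = 0.000223), and SLC16A3, the lactate exporter of glycolytic cells, had a log2 difference of -1.50 ± 0.32 (SE, adjusted p = 0.0170). SLC16A9, which stood just above the count minimum, had the lowest value of all members (-2.44 ± 0.62, SE, adjusted p = 0.0277), and SLC19A2, a thiamine carrier, followed with -1.62 ± 0.14.

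Metal ion carriers gave 10 lower and 5 higher genes of 24, and inorganic ion carriers 5 lower and 9 higher of 31. SLC20A1, a phosphate carrier, was lower by a log2 difference of -0.39 ± 0.08 (SE, adjusted p = 0.0132). SLC12A7 had the smallest adjusted p of all members, with 523 and 487 CPM in the TRiC inputs against 121 and 123 CPM in the PFD inputs (log2 difference 2.02 ± 0.07, SE, adjusted p = 8.8e-05). Of the 39 genes for ER membrane insertion 22 were lower and 2 higher in the TRiC inputs, with a median log2 difference of -0.54.

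The PFD inputs held at most 3 counts each of 6 members, and 4 of these 6 were enriched in the TRiC pulldown, against 8.64% of all genes tested. The share among all genes equally scarce in the PFD inputs was not computed. Over all 14611 protein-coding genes tested, the TRiC log2 fold change had a Spearman rho of -0.26 with the level in the PFD inputs. Over the members this value was -0.23. The reverse case, a carrier scarce in the TRiC inputs, could not occur under the count minimum. SLC34A3 and SLC16A4 were at 0 in both PFD inputs, so that they were at least 10.2-fold and at least 9.43-fold higher in the TRiC inputs against a floor of 3 counts per library. SLC16A8 had 1 count in the PFD inputs against 280 in the TRiC inputs, a ratio of 139 with an exact 95% counting interval of 24.8 to 5526. SLC2A9 had 1 count against 184, a ratio of 91.6 (16.2 to 3638). All 6 were also low in the TRiC line, where the highest of them had a mean of 140 counts in the inputs.

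The counts of this comparison depended on single libraries. Fewer members were called higher and lower without either TRiC input, and more without either PFD input. Over all genes the shares called moved the same way in these fits. A difference between the inputs belongs to clone, tag and preparation together, which cannot be told apart.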

How the data were processed

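Selective ribosome profiling libraries from U-2 OS cells with HaloTag-tagged CCT4 (TRiC) or PFD4 (PFD) were analysed, with 2 inputs and 2 pulldowns per line. The deposited values are raw whole-number counts per gene. According to their methods, the authors trimmed and demultiplexed reads, handled molecular identifiers with UMI-tools, removed non-coding RNA with Bowtie2 2.4.2 and aligned the rest to hg38 with STAR 2.7.10a (at most 2 mismatches, unique alignments, gene counting). The annotation release and the strand setting are not given in the sources used here. Unique alignment can lose RPFs of genes with near-identical copies, and the counts hold no position along the coding sequence.

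Of 60664 identifiers 60463 matched GENCODE release 44, which gave symbols, coding lengths and the translated sequences in which hydrophobic windows were sought. Counts were tested with edgeR 4.0.16 in R 4.3.3 (TMM, filterByExpr, quasi-likelihood test, Benjamini-Hochberg over all genes tested, two-sided, threshold 0.05) in the 4 libraries of each line, in all 8 for the interaction, and in the 4 inputs for the lines. SE is the log2 fold change divided by the root of the F statistic. Alternatives were DESeq2 1.42.0, limma 3.58.1 with cyclic loess, library totals, other filters, a replicate block, a test against a 1.5-fold change and leaving out each library. The scripts were tested on simulated data. Libraries held 9523128 to 32637658 counts. Counting intervals (exact, 95%) cover counting error only, and the spread of 2 replicates limits the precision.

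The members, the gene lists by substrate class and the tests were chosen with earlier results of these data known. Named genes were, with a mean of at least 100 counts and both replicates in 1 direction, up to 8 highest and 8 lowest TRiC calls and the 5 highest and 5 lowest PFD values. To these were added the 5 highest and 5 lowest calls between the inputs, the 10 most translated members, SLC3A2 with its light chains, and a list of amino acid, glucose and lactate carriers. Genes outside this rule are marked in the text or given beside a count.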

Additional observations from a re-analysis of the deposited data

How the results depend on the processing

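All values are counts of solute carriers called higher and lower, or log2 fold changes. In the TRiC pulldown (19 higher, 7 lower) the counts became 0 and 0 with all 8 libraries in the fit, 2 and 0 against a 1.5-fold change, 18 and 4 with DESeq2, 18 and 4 with at least 100 counts in every library, 21 and 3 with cyclic loess, and 20 and 2 with library totals. In the fits without 1 library they ranged from 9 to 19 and from 1 to 16. In the PFD pulldown (0 and 0) they became 2 and 3 with DESeq2, 1 and 1 with all 8 libraries, and 1 and 0 with no filter on low counts, and without 1 library they ranged from 1 to 10 and from 0 to 14. The interaction gave 6 and 3 with DESeq2. Without 1 library it gave calls only where a PFD pulldown was left out, and more of all genes were called there too. Between the inputs (44 and 41) at least 100 counts in every library left 28 higher, and without 1 library the range was 21 to 74 and 30 to 54. Members numbered 94 with at least 1000 summed counts. DESeq2 kept 22 and library totals 21 of the 26 TRiC calls.

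Whether an input and a pulldown of the same replicate number belong together could not be decided. Their deviations correlated at 0.059 for TRiC libraries and at -0.009 for PFD libraries, but 2 pairs per line are too few to exclude pairing. By the paper's methods, both the total RNA and the pulldown came from the ribosome pellets. With a replicate block the TRiC pulldown gave 23 higher and 12 lower members, all 26 calls among them, the PFD pulldown gave 1 and 0 with a median of 0.0125, and the interaction gave 0 and 0.

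The median of the members in the TRiC pulldown (0.015) became 0.0771 with at least 100 counts in every library. It became 0.0532 with cyclic loess and 0.0639 with library totals. Over all genes the median was 0.006, -0.018 and 0.044 in these settings. Without 1 library the members' median ranged from -0.0140 to 0.0467. In the PFD pulldown (0.044) it became 0.0177 with at least 100 counts in every library and 0.00849 with library totals, and it ranged from -0.00331 to 0.0932.

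Some named members changed sign, none of them called in the reported fit or in a fit where the sign turned. SLC16A1 and SLC2A3 were called lower in the PFD pulldown without PFD pulldown replicate 2 (adjusted p = 0.0222 and 0.0350), at the low ends of their ranges. In the TRiC pulldown SLC16A1 became 0.0286 with at least 100 counts in every library, 0.0784 with cyclic loess and 0.0109 with library totals, SLC39A7 became 0.00771 and 0.0570 with the first 2 of these, and SLC3A2 became 0.0359 with cyclic loess. SLC6A9 became 0.00966 with DESeq2, 0.0610 with at least 100 counts, 0.0410 with cyclic loess and 0.0456 with library totals. Between the inputs SLC1A4 became 0.0585 and SLC7A11 0.0892 with at least 100 counts. Without 1 library, TRiC values ranged from -0.129 to 0.0134 (SLC39A7), -0.0778 to 0.0662 (SLC6A9) and -0.427 to 0.188 (SLC7A8). PFD values ranged from -0.319 to 0.00549 (SLC16A1), -0.0860 to 0.260 (SLC1A4), -0.159 to 1.51 (SLC27A2), -1.48 to 0.235 (SLC2A3), -0.0387 to 0.153 (SLC38A2), -0.296 to 0.297 (SLC39A14), -0.126 to 0.0701 (SLC39A7), -0.0498 to 0.163 (SLC7A11) and -0.0464 to 0.228 (SLC7A5). Input differences ranged from -0.0972 to 0.0564 (SLC1A4), -0.170 to 0.603 (SLC6A9) and -0.0962 to 0.126 (SLC7A11). The cause of these changes was not tested.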
